A study of Mus musculus with 6 samples.

Results

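The 46 genes described here encode the machinery of mitosis: kinases and checkpoint proteins, kinetochore subunits, anaphase regulators, spindle and cytokinesis proteins, and condensin with its chromosome partners. They were chosen by name, and every one of the 46 had a row in the authors' deposited table, which holds 22432 genes. Each row was matched to its symbol through the Ensembl identifier in GENCODE release M21. The genes are grouped by their functions in dividing cells.

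Germline stem cells of male mice, which renew themselves and can give rise to sperm, had been kept in culture. The 6 samples were 3 of CDH1+/THY1+ cells and 3 of CDH1-/THY1+ cells, defined by 2 surface proteins, the adhesion molecule E-cadherin (CDH1) and the glycoprotein THY1. Each population came from the cultures RP7 (strain label OCT4/GFP; Dox-OCT4, age 8 weeks), RP5 (the same strain label, age 19 days) and WT1 (strain label C57BL/6, age 5 weeks). All were at passage 6 to 8 and had been grown on DR4 feeder fibroblasts in medium with GDNF and FGF. The labels do not say whether or when the transgene named Dox-OCT4 was switched on. The comparison sets THY1+ cells that carry CDH1 against THY1+ cells that lack it. The table gives 1 comparison and no value per library, so the level of a gene in either population, the spread between replicates and the depth of a sample are unknown. Mean normalised counts of all rows sum to 16900379, as a mean over the 6 libraries. The direction, CDH1+/THY1+ over CDH1-/THY1+, rests on the name of the table, because the gene of CDH1 was not analysed here. Were the table built the other way round, every gene given as higher would be lower, and the 19 and 0 calls below would change places. Taken as named, 10 of 12 germ cell marker genes were lower in CDH1+/THY1+ cells, as given below. Which way round the table was built was not tested.

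Cells enter mitosis when cyclin-dependent kinase 1, Polo-like kinase 1 and the Aurora kinases become active. Kinetochores built on centromeric chromatin then attach chromosomes to spindle microtubules, and the spindle checkpoint holds the anaphase-promoting complex (APC/C) inactive until attachment is complete. The APC/C then marks securin and cyclin B for destruction, separase opens cohesin, and the cell divides. The RNAs of many of these genes rise late in the cell cycle. Their promoters are held silent by the DREAM complex and switched on with B-MYB and FOXM1, largely through a short promoter element called CHR (cell cycle genes homology region) and upstream CCAAT boxes. In bulk RNA a higher level can mean more cells in mitosis, more RNA per cell or a different mix of cells. These cannot be told apart here.

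The promoters of 5 members are shown because they pair this element with different outcomes in the comparison. Plk1, Ube2c and Cks1b rose, whereas Cdc20, which carries the same letters, and Cks2, the close relative of Cks1b without them, did not pass the test. The sequences are RefSeq promoter windows of build GRCm38.p6, 250 bases before to 50 after the annotated start, written 5′ to 3′ on the strand of the gene. Capitals mark the CHR letters TTTGAA and the CCAAT box on either strand, so TTCAAA and ATTGG are the same letters read on the other strand.
Plk1, chr7:122159185-122159484, plus strand: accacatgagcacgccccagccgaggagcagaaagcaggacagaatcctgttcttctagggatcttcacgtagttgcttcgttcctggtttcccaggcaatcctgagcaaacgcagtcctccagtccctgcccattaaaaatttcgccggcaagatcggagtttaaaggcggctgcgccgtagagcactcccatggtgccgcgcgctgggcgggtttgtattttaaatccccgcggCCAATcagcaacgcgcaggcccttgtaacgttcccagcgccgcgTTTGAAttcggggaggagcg
Ube2c, chr2:164769679-164769978, plus strand: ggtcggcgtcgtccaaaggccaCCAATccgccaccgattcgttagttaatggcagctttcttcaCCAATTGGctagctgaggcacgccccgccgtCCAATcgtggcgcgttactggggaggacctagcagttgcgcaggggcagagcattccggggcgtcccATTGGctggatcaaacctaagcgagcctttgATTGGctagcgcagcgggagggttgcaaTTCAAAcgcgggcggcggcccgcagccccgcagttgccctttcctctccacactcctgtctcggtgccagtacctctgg
Cks1b, chr3:89418242-89418541, minus strand: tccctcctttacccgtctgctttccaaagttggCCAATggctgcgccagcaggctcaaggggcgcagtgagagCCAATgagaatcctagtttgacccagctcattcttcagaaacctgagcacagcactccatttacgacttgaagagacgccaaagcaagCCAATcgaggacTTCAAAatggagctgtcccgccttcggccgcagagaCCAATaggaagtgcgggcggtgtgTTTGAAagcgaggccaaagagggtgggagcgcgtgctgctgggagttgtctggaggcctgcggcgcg
Cdc20, chr4:118437294-118437593, minus strand: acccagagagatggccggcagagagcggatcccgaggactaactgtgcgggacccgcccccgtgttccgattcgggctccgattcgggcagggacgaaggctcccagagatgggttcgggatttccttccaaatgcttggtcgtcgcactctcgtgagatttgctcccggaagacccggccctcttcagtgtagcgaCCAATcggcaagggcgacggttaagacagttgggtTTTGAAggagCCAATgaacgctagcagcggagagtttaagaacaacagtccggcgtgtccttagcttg
Cks2, chr13:51644982-51645281, plus strand: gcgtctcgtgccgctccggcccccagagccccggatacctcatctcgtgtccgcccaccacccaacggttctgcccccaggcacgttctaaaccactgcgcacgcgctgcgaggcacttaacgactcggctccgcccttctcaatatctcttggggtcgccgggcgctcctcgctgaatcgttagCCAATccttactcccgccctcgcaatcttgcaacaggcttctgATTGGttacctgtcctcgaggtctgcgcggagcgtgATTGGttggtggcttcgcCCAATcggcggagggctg

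In CDH1+/THY1+ cells 19 of the 46 mitotic genes were higher and 0 were lower in the authors' deposited table (DESeq2, adjusted p under 0.05). Over all 19211 genes with an adjusted p-value, 33.5% were called, 17.1% as higher and 16.4% as lower. The mean normalised counts of the 46 all exceeded 100, and among the 11133 genes of that level 44.3% were called, 22.6% as higher and 21.7% as lower. The members' share of higher calls was 41.3%. It differed with level: among the 25 members in the highest of 4 equally filled groups of protein-coding genes by mean normalised count (from 1516), 5 were higher, where 21% of all genes in that group were. In the group below it 10 of 16 members were higher, where 20.1% of all genes were. At an unadjusted p under 0.05, 21 members were higher and 1, Zw10, was lower, and the share of all genes at that threshold was not computed. The median log2 fold change of the members was 0.31 (quartiles -0.03 and 0.61), against 0.01 for all genes tested. The changes were modest: 4 members rose by at least 2-fold, and 6 of the 19 by less than 1.5-fold. Of all 19211 genes tested, 1435 were called higher by at least 2-fold. Of the 27 members that were not called, 13 had a fold change above 0. For all 27 the 95% interval from the deposited standard error lay within a 2-fold change in either direction, and for 20 it lay within 1.5-fold.

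**Figure D1:**
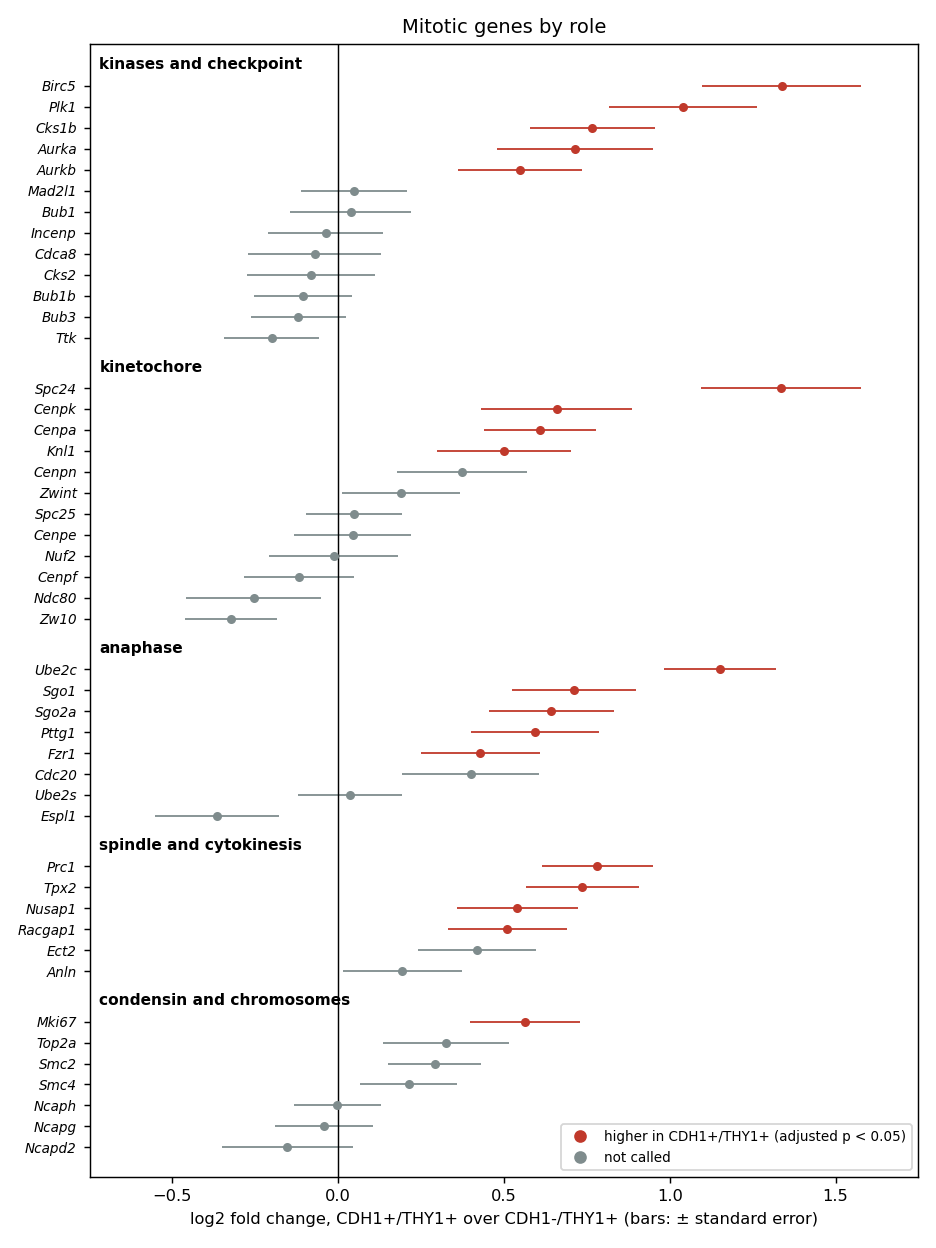
Log2 fold change of each of the 46 mitotic genes (x axis, CDH1+/THY1+ over CDH1-/THY1+) grouped by role, with bars of 1 deposited standard error on each side. The 19 genes called higher are red and the 27 not called are grey, and Birc5, Spc24, Ube2c and Plk1 stand furthest to the right.

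The count depended on how strictly genes were called. At an adjusted p under 0.01, 13 members were higher, where 23% of all genes were called, 11% as higher and 12% as lower. With the Benjamini-Yekutieli adjustment of the deposited p-values over all rows, 11 members were higher, where 16.3% of genes were called, 7.46% as higher and 8.81% as lower. With the Benjamini-Hochberg adjustment over all rows 18 were higher, where 27.6% were called, 14% as higher and 13.6% as lower. Leaving out genes whose standard error was large for their level removed 0 of the members, so the 19 could not change. Of all genes left by that rule 33.2% were called, 15.7% as higher and 17.5% as lower. No member was lower by any of these rules.

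Markers of germ cells and of other cells also differed between the populations. Among all genes with a mean normalised count of at least 100, 22.6% were higher and 21.7% lower. Of 15 fibroblast genes, the feeder cell type, 6 (40%) were higher and 0 lower in CDH1+/THY1+ cells, among them Cald1, Ccn1 and Cd44. The median log2 fold change of the 15 in the authors' deposited table was 1.10. All 15 had fold changes above 0, and all were detected, with mean normalised counts from 668, so none was at 0. Of 12 germ cell genes 0 were higher and 10 (83.3%) lower in the authors' deposited table, among them Tdrd1, Mov10l1 and Zbtb16. The median of the 12 was -1.49, and 0 of them lay above 0. All 12 were present in the pooled libraries, with mean normalised counts from 88.8 to 14797. These means over both populations do not show the level of the genes in either of them. The fibroblast collagen gene Col1a1 had 0.81 ± 0.49 and was not called in the authors' deposited table, with a mean normalised count of 37387. The median standard error of the fibroblast genes lay at percentile 96.5 among genes of like mean count, against 69.2 for the mitotic genes. Of 5 tested Sertoli cell genes Kitl and Clu were higher in the authors' deposited table. The others, Sox9, Gata4 and Wt1, were not called, with log2 fold changes of 1.06 ± 0.52, 0.93 ± 0.51 and -0.42 ± 0.31. Their mean normalised counts were low, at 67.1, 31.4 and 72.8. Of 4 listed leukocyte genes the 2 with a row, Ptprc and Cd68, were higher, with low mean normalised counts of 13.9 and 134. The other 2 leukocyte genes were not analysed here. The Sertoli cell gene Amh was near 0, with a mean normalised count of 2.27 in the authors' deposited table. The directions of these lists rest on the table's name too. Were the table built the other way round, the 10 germ cell genes would be higher and the 6 fibroblast genes lower in CDH1+/THY1+ cells. The summed level of these lists in each population cannot be had from the table, and their part in the values of the mitotic genes was not tested.

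The kinase genes Plk1, Aurka and Aurkb rose, whereas the 5 checkpoint genes, among them the kinase genes Bub1 and Ttk, did not pass the test. Plk1, the Polo-like kinase of mitotic entry and spindle assembly (chromosome 7, 122159439 to 122169873 in GRCm38), had a mean normalised count of 919 and a log2 fold change of 1.04 ± 0.22 in the authors' deposited table (standard error, adjusted p = 2.96e-05). That is 2.06-fold higher in CDH1+/THY1+ cells. Aurka, the centrosomal Aurora A kinase, was 1.64-fold higher in the authors' deposited table (0.71 ± 0.23 on the log2 scale, adjusted p = 0.00959), and Aurkb, the Aurora B kinase of centromeres and the midzone, was 1.46-fold higher (0.55 ± 0.19 on the log2 scale, adjusted p = 0.0129). The 5 checkpoint genes were Bub1 and Bub1b, a kinase and a pseudokinase of the kinetochore, Bub3, their partner, Mad2l1, which binds CDC20, and Ttk, the kinase MPS1 that starts the signal. Their log2 fold changes in the authors' deposited table lay between -0.20 (Ttk, adjusted p = 0.286) and 0.05 (Mad2l1, adjusted p = 0.855), with a median of -0.11. All 5 intervals lay within a 1.5-fold change. Bub1b, with a mean normalised count of 4667 in the authors' deposited table, had an interval of -0.40 to 0.19 on the log2 scale.

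Within the chromosomal passenger complex, which corrects faulty attachments, the subunits had unlike values. Birc5, survivin (chromosome 11, 117849251 to 117855743), had the highest fold change of the 46 genes in the authors' deposited table, 2.53-fold (1.34 ± 0.24 on the log2 scale, adjusted p = 3.58e-07). Aurkb, its kinase, rose as given above. The scaffold Incenp and the targeting subunit Cdca8, borealin, had log2 fold changes of -0.04 ± 0.17 and -0.07 ± 0.20 in the authors' deposited table and were not called (adjusted p = 0.899 and 0.83). Their intervals ended at 0.30 and 0.32 on the higher side, below the lower end of the Birc5 interval, 0.87. A difference between 2 genes measured in the same libraries was not tested, because the table holds no value per library.

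The paralogs Cks1b and Cks2, small subunits that bind cyclin-dependent kinases, also had unlike values. Cks1b was 1.70-fold higher in the authors' deposited table (0.77 ± 0.19 on the log2 scale, adjusted p = 0.000315), with a mean normalised count of 1044. Cks2 had a mean normalised count of 1544 and a log2 fold change of -0.08 ± 0.19 in the authors' deposited table (adjusted p = 0.786, interval -0.46 to 0.30). Of the 50-base windows of the longest coding transcript, 29.7% for Cks2 and 7.75% for Cks1b occur in a transcript of another annotated gene, so reads of Cks2 could have been lost to or gained from copies. How such reads were counted is not given in the sources used here.

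Of 12 kinetochore genes, 4 rose (33.3%) and 0 fell, beside 22.6% and 21.7% of all genes with a mean normalised count of at least 100. Spc24, a subunit of the Ndc80 complex that grips microtubules (chromosome 9, 21755442 to 21760303), was 2.52-fold higher in the authors' deposited table (1.34 ± 0.24 on the log2 scale, adjusted p = 4.91e-07). Its partners were not called: Spc25, with which it forms a dimer, had 0.05 ± 0.14, Nuf2 -0.01 ± 0.19 and Ndc80 -0.25 ± 0.20 on the log2 scale in the authors' deposited table (adjusted p from 0.351 to 0.97). Cenpa, the histone variant that marks centromeres, was 1.53-fold higher in the authors' deposited table (0.61 ± 0.17 on the log2 scale, adjusted p = 0.00174). Cenpk of the inner kinetochore was 1.58-fold higher in the authors' deposited table (0.66 ± 0.23 on the log2 scale, adjusted p = 0.0138), and had the lowest mean normalised count of the 46 genes, 203. Cenpn, which reads CENP-A nucleosomes, had 0.37 ± 0.20 and was not called in the authors' deposited table (adjusted p = 0.126).

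Knl1, the platform on which BUB proteins gather, was 1.41-fold higher in the authors' deposited table (0.50 ± 0.20 on the log2 scale), a call close to the threshold (adjusted p = 0.0385). Zwint, which binds KNL1, had 0.19 ± 0.18 without a call in the authors' deposited table. Zw10, a subunit of the complex that brings dynein to kinetochores, had -0.32 ± 0.14 and lay just outside the threshold in the authors' deposited table (adjusted p = 0.0542). The large coiled-coil genes Cenpe, a kinesin motor, and Cenpf had log2 values of 0.04 ± 0.18 and -0.12 ± 0.17 in the authors' deposited table, neither called, with mean normalised counts of 2858 and 4810.

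At a mean normalised count of at least 100, 22.6% of all genes were higher and 21.7% lower. Of 8 anaphase genes, 5 rose (62.5%) and 0 fell, with a median log2 fold change of 0.51. The clearest was Ube2c, the ubiquitin-conjugating enzyme that starts ubiquitin chains for the APC/C (chromosome 2, 164769898 to 164778822), 2.22-fold higher in the authors' deposited table (log2 1.15 ± 0.17). Its adjusted p, 3.4e-10, was the smallest of the 46. Ube2s, the enzyme that extends those chains, had 0.04 ± 0.16 in the authors' deposited table (adjusted p = 0.893), with a mean normalised count of 3766 against 980 for Ube2c. The shugoshins protect cohesin at centromeres. Sgo1 was 1.64-fold higher (0.71 ± 0.19 on the log2 scale, adjusted p = 0.00086) and Sgo2a, known for its part in mouse meiosis, 1.56-fold higher in the authors' deposited table (0.64 ± 0.19 on the log2 scale, adjusted p = 0.00323).

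Pttg1, securin, was 1.51-fold higher in the authors' deposited table (0.59 ± 0.19 on the log2 scale, adjusted p = 0.00891), and Espl1, the protease separase that securin blocks, had -0.36 ± 0.19 without a call (adjusted p = 0.119). The interval of Espl1 ran from -0.73 to 0.00 on the log2 scale. Both activators of the APC/C had positive values. Fzr1, whose protein is also named CDH1 but is unrelated to the adhesion molecule E-cadherin, was 1.35-fold higher at the edge of the threshold in the authors' deposited table (0.43 ± 0.18 on the log2 scale, adjusted p = 0.0481). Cdc20, the activator that the checkpoint restrains, had 0.40 ± 0.21 without a call in the authors' deposited table (adjusted p = 0.119).

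All 6 spindle and cytokinesis genes had fold changes above 0, and 4 of them rose (66.7%). Of all 11133 genes with a mean normalised count of at least 100, 5789 had fold changes above 0. Of these 11133 genes 22.6% were called higher and 21.7% lower. Prc1, which bundles midzone microtubules, was 1.72-fold higher in the authors' deposited table (0.78 ± 0.17 on the log2 scale, adjusted p = 2.75e-05). Tpx2, the activator of Aurora A on the spindle, was 1.67-fold higher (0.74 ± 0.17 on the log2 scale, adjusted p = 0.000136) in the authors' deposited table. Nusap1, a microtubule-binding protein near chromosomes, and Racgap1, a subunit of centralspindlin, were 1.45-fold and 1.42-fold higher in the authors' deposited table (log2 0.54 ± 0.18 and 0.51 ± 0.18, adjusted p = 0.0112 and 0.0164). Ect2, the exchange factor for RhoA that centralspindlin recruits, had 0.42 ± 0.18 and lay just outside the threshold (adjusted p = 0.0518) in the authors' deposited table. Anln, anillin of the contractile ring, had 0.19 ± 0.18 in the authors' deposited table (adjusted p = 0.436).

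Condensin I, which compacts mitotic chromosomes, did not pass the test in any of its 5 subunits. Smc2 and Smc4, the ATPase pair shared with condensin II, had log2 fold changes of 0.29 ± 0.14 and 0.21 ± 0.15 in the authors' deposited table. The subunits particular to condensin I, Ncapd2, Ncapg and Ncaph, had -0.15 ± 0.20, -0.04 ± 0.15 and -0.00 ± 0.13 in the authors' deposited table. All 5 intervals lay within a 1.5-fold change. Mki67, the Ki-67 protein that coats mitotic chromosomes and marks cycling cells, was 1.48-fold higher in the authors' deposited table (0.56 ± 0.17 on the log2 scale, adjusted p = 0.00329). Top2a, the topoisomerase that untangles sister chromatids, had 0.33 ± 0.19 and was not called (adjusted p = 0.176), although it had the highest mean normalised count of the 46 genes in the authors' deposited table, 16316.

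Per kb of annotated exon, a scale that depends on how long the annotated exons are, the mean normalised count over all 6 libraries ranged from 38.8 for Cenpk to 2231 for Cks2. The 4 Ndc80 complex genes lay at 157 (Spc24), 144 (Nuf2), 184 (Ndc80) and 339 (Spc25) per kb. The 5 checkpoint genes ranged more widely, with 1092 per kb for Bub1b at the top and 196 for Mad2l1 at the bottom. Ube2c had 377 and Ube2s 732 per kb. The 2 members of the passenger complex that rose, Birc5 and Aurkb, had 238 and 389 per kb, and those not called, Cdca8 and Incenp, had 267 and 503. Levels of different genes carry no replicate spread here, so these orders are descriptions of the pooled libraries.

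**Figure D2:**
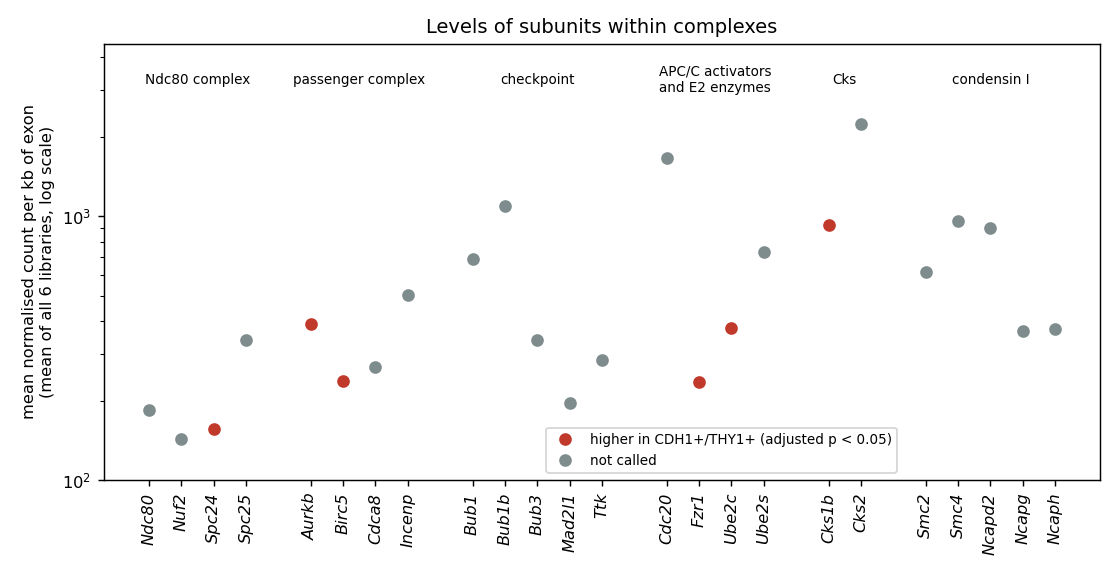
Mean normalised count per kb of annotated exon (y axis, log scale, mean of all 6 libraries of both populations) for subunits of 6 complexes or pairs on the x axis. Red points are genes called higher in CDH1+/THY1+ cells and grey points genes not called, and both kinds occur together in the Ndc80 complex, the passenger complex, the APC/C enzymes and the Cks pair.

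The promoter letters named above were common in these genes whether or not they rose. The motifs searched on both strands were CHR (TTTGAA), a CHR variant (TTCGAA), the CCAAT box (CCAAT) and an E2F motif (TTCCCGC). None of the 4 contains another, TTCGAA reads the same on both strands, and a CCAAT box can overlap its own reverse complement, as in the Ube2c promoter above. A window was found for 41 of the 46 members by symbol, and in all for 27025 genes, any window of a gene counting. CHR letters were present in 63.4% of the members with a window and in 20.2% of all genes, and the CCAAT box in 73.2% and 41.1%. CHR or its variant stood together with a CCAAT box in 58.5% of members and 8.61% of all genes. E2F letters were present in 12.2% of members and 5.29% of all genes.

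Among the members that rose, 9 of 16 with a window held CHR (56.2%), and among those not called, 17 of 25 (68%). For the CCAAT box these shares were 75% among those that rose and 72% among those not called. The first base of the CHR letters stood 30 bases after the start in Plk1, 29 bases before it in Ube2c (distance -29) and 18 before it in Cdc20 (distance -18). Cks1b held CHR letters at -77 and -17. In the windows of Birc5 and Cks2 these exact CHR letters were not found. These are matches of letters in a fixed window, a description with no test, and binding of a factor was not measured.

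**Figure D3:**
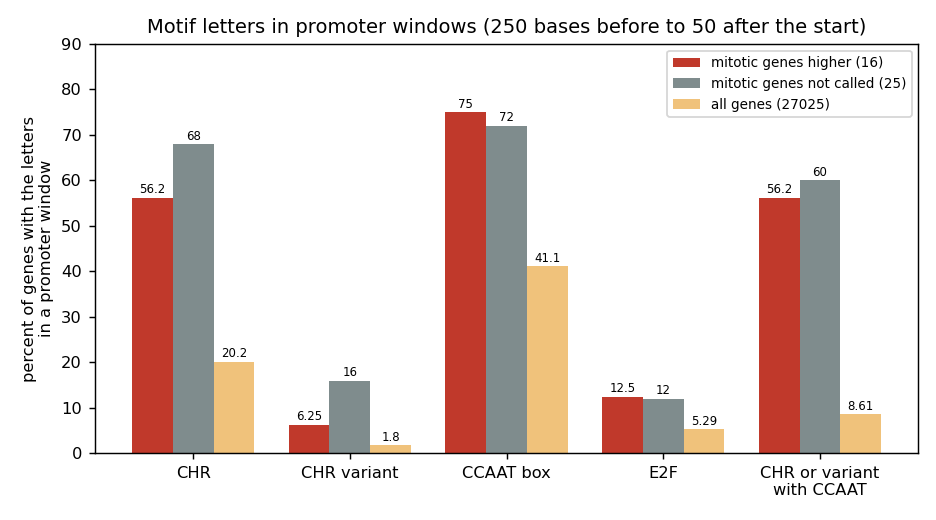
Percent of genes (y axis) with each motif's letters in a RefSeq promoter window, for the 16 mitotic genes called higher and the 25 not called that had a window, and for all 27025 genes. CHR letters stood in 56.2% and 68% of the mitotic genes and in 20.2% of all genes.

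Other mitotic genes, listed by function, had calls in both directions. Of 122 such genes 29 were higher and 18 lower, or 23.8% and 14.8%, beside 22.6% and 21.7% of all genes with a mean normalised count of at least 100. Their median log2 fold change was 0.10. Of the 122, 1 had a mean count under 100. Cdk1, the kinase of mitotic entry, was 2.36-fold higher in the authors' deposited table (1.24 ± 0.18 on the log2 scale, adjusted p = 2.1e-10), and its partner Ccnb2 was 1.71-fold higher (log2 0.78 ± 0.16). In the same list of 18 kinase and checkpoint genes 2 rose (11.1%) and 4 fell (22.2%). Among those that fell was the AAA ATPase gene Trip13, which remodels MAD2, at -0.51 ± 0.15. The Cdk1-inhibiting kinase gene Wee1 was lower at -0.52 ± 0.20 and the kinase gene Pbk at -0.42 ± 0.16 in the authors' deposited table. The fourth was Plk4, the kinase of centriole duplication, at -0.38 ± 0.15 in the authors' deposited table.

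Of 29 further kinetochore and centromere genes 8 rose and 3 fell, or 27.6% and 10.3%. The shares of all genes with a mean normalised count of at least 100 were 22.6% and 21.7%. Ska2 and Ska1, which help kinetochores hold depolymerising microtubules, had log2 fold changes of 1.55 ± 0.21 and 1.11 ± 0.23 in the authors' deposited table. The 4 subunits of the MIS12 complex, which joins the Ndc80 complex to the centromere, split. Nsl1 was higher at 0.92 ± 0.19, Dsn1 and Mis12 were lower at -0.62 ± 0.14 and -0.45 ± 0.15, and Pmf1 had -0.10 ± 0.19 without a call in the authors' deposited table. Hjurp, the chaperone that deposits CENP-A, fell, with a log2 fold change of -0.50 ± 0.15 in the authors' deposited table (adjusted p = 0.00369), opposite in sign to Cenpa.

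Among 15 genes of the APC/C and its inhibitor, 3 rose and 3 fell, or 20% each. The shares of all genes with a mean normalised count of at least 100 were 22.6% and 21.7%. Fbxo5, known as EMI1, the inhibitor, was 2.68-fold higher in the authors' deposited table (1.42 ± 0.24 on the log2 scale, adjusted p = 4.25e-08). The core subunits Anapc4, Anapc1 and Anapc2 were lower at -0.68 ± 0.14, -0.47 ± 0.14 and -0.40 ± 0.15, while Cdc23 and Cdc26 were higher at 0.50 ± 0.14 and 0.61 ± 0.22 in the authors' deposited table. Of 13 cohesin genes 4 rose and 4 fell, or 30.8% each. The alternative subunits had opposite signs, Stag2 at 0.34 ± 0.13 and Stag1 at -0.55 ± 0.11, as did the cohesin regulators Pds5a at 0.55 ± 0.17 and Pds5b at -0.57 ± 0.13 in the authors' deposited table. The ring subunits Smc1a and Rad21 had 0.44 ± 0.19 and -0.49 ± 0.17, and the cohesin loader gene Nipbl 0.29 ± 0.12, in the authors' deposited table. The acetyltransferase gene Esco1 had -0.86 ± 0.13 in the authors' deposited table.

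Of 34 other spindle genes 8 rose and 3 fell, or 23.5% and 8.82%. The shares of all genes with a mean normalised count of at least 100 were 22.6% and 21.7%. The hyaluronan-mediated motility receptor gene Hmmr had 1.42 ± 0.23 in the authors' deposited table. The spindle assembly gene Dlgap5 had 0.92 ± 0.21 and the dynein regulator gene Nde1 0.65 ± 0.14. Those that fell were Haus4 of the augmin complex, Clasp1 and Gpsm2, at -0.74 ± 0.19, -0.46 ± 0.14 and -0.43 ± 0.14. Of 10 other cytokinesis genes 3 rose (30%) and 0 fell by DESeq2. These 3 were the formin gene Diaph3 at 1.01 ± 0.19, Arhgef39 at 0.82 ± 0.27 and Chmp4b at 0.28 ± 0.12 in the authors' deposited table. Of the 3 genes of condensin II, Ncaph2 was higher at 0.50 ± 0.15, Ncapd3 was lower at -0.73 ± 0.16, and Ncapg2 had -0.15 ± 0.18 without a call in the authors' deposited table.

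Regulators of the mitotic promoters had unlike values. Of 13 such genes 5 rose and 1 fell, or 38.5% and 7.69%. Mybl2, the gene of B-MYB, was 3.52-fold higher in the authors' deposited table (1.81 ± 0.29 on the log2 scale, adjusted p = 1.19e-08), above any of the 46 mitotic genes. The standard error of Mybl2 was large for its level, at percentile 96.5 among genes of like mean count, whereas no member exceeded percentile 90. E2f4, of the DREAM complex, had 1.29 ± 0.20 and E2f8, a repressor of E2F targets, 0.90 ± 0.25 in the authors' deposited table. Rbl2 (p130) and Lin52, also of DREAM, had 0.62 ± 0.24 and 0.53 ± 0.20 in the authors' deposited table. Lin54, whose protein binds CHR letters, fell, with -0.54 ± 0.14 (adjusted p = 0.000795), and Foxm1 had -0.17 ± 0.16 without a call (adjusted p = 0.452) in the authors' deposited table. Of 27 tested genes of the G1/S transition and replication, 6 rose and 1 fell, or 22.2% and 3.7%, with a median of 0.01. Among all genes with a mean normalised count of at least 100, 22.6% were higher and 21.7% lower. Rrm2, a subunit of ribonucleotide reductase, had 1.81 ± 0.24 and Gins2, of the replicative helicase, 1.14 ± 0.24, and E2f1 was lower at -0.42 ± 0.15 in the authors' deposited table.

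**Figure D4:**
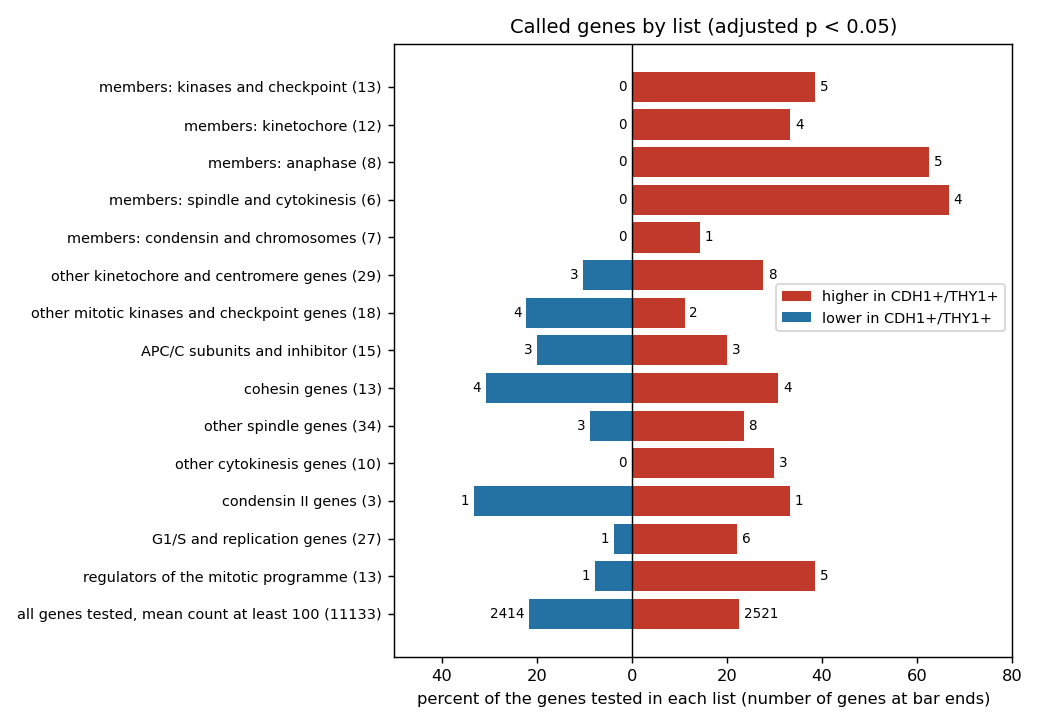
Percent of the tested genes of each list (x axis) that were higher (red, to the right) or lower (blue, to the left) in CDH1+/THY1+ cells at an adjusted p under 0.05, with numbers of genes at the bar ends and list sizes in brackets. The first 5 bars are the 46 mitotic genes by role, with 0 lower, and the last is all 11133 genes with a mean normalised count of at least 100, with 2521 higher and 2414 lower.

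The share of members that rose differed with the length of their annotated exons. In the shortest of 4 equally filled length groups of protein-coding genes (under 3035 bases, mean normalised count over 100), 7 of 9 members rose, with a median log2 fold change of 0.71, while 25.6% of all 2710 genes in that group were higher. In the longest group, from 7223 bases, 3 of 9 members rose, and 19.8% of all genes were higher. The 2 members of the shortest group without a call were Cdc20 and Cks2. Median exon length was 4059 bases for the 19 that rose and 5210 bases for the 27 not called. Across the 46 genes Spearman's rho of fold change and exon length was -0.32 (Pearson's r of log2 length -0.32), and across 10842 protein-coding genes it was -0.09 (r = -0.08). With mean normalised count, rho was -0.39 across the members (r = -0.40) and -0.09 across all these genes (r = -0.05). Genes share the same 6 libraries and are not independent, and the part of exon length and of level in the calls was not tested.

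**Figure D5:**
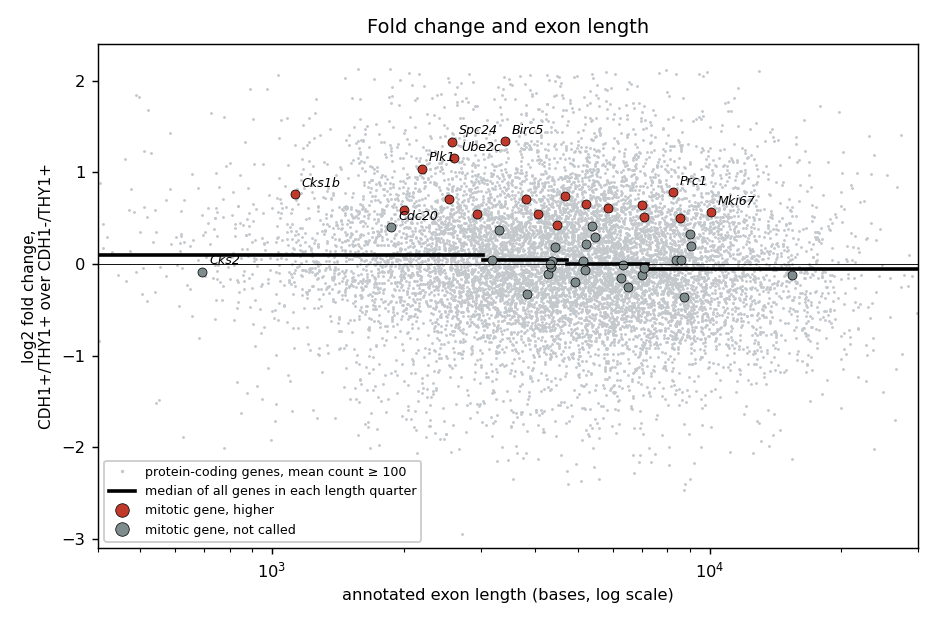
Log2 fold change (y axis, CDH1+/THY1+ over CDH1-/THY1+) against annotated exon length in bases (x axis, log scale) for the 46 mitotic genes (red, higher; grey, not called) and for protein-coding genes with a mean normalised count of at least 100 (small points, cropped at both ends of the x axis). Black lines are the medians of all genes in each of the 4 length groups, and Birc5, Spc24, Ube2c, Plk1 and Cks1b lie above them among the shorter genes.

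For 11 members an exon of another gene lies on the opposite strand, and whether counting used strand is not given in the sources used here. Kctd18 overlaps 35% of the exon bases of Sgo2a and was lower, with a log2 fold change of -0.59 ± 0.18 in the authors' deposited table (adjusted p = 0.00492), opposite in sign to Sgo2a. Of the 50-base windows of Sgo2a, 48.3% occur in another gene, and without strand the reads of this pair could not be told apart. Tnnc2, which overlaps 22.8% of Ube2c exons, had a mean normalised count of 3.93, against 980 for Ube2c, in the authors' deposited table. Lcorl overlaps 13.4% of Ncapg exons and Rccd1 11.1% of Prc1 exons, and neither passed the test in the authors' deposited table. Among the partners of the others, Rpl28 (3.56% of Ube2s exons) and Mfsd12 (0.0891% of Fzr1 exons) were higher in the authors' deposited table. The pseudogene Plk-ps1 shares sequence with Plk1, for which 10.9% of windows occur in another gene, and Gm7856 with Cdc20, for which 11.6% do. For Spc24, Aurka, Aurkb, Cenpa and Pttg1 the share was 0%.

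The members are spread over 15 chromosomes, with 9 on chromosome 2, of which 5 rose, and 5 on chromosome 7, of which 3 rose. Of all tested genes, 16.4% were higher on chromosome 2 and 18.8% on chromosome 7, with median log2 fold changes of 0.01 and 0.09. On chromosome 11, 3 of 4 members rose, where 17.5% of its 1476 tested genes were higher, with a median of -0.03. Chromosomes 3 and 9 had 1 of 4 members higher each, where 17.2% and 15.9% of all tested genes were higher. Chromosomes 4 and 6 had 0 of 3 and 0 of 2, where 18.2% and 16.2% were higher.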

How the data were processed

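RNA was measured by sequencing of total RNA depleted of ribosomal RNA in 6 samples, with strand-specific libraries per the labels' protocols. Trimmomatic 0.32 and TopHat2 2.1.1 are named in the submitters' processing notes, as are featureCounts, Subread 1.5.0-p3 and the build GRCm38.p4, without their roles. The authors used DESeq2 1.12.3 and R 3.3.1, per the submitters' processing notes. The annotation, counting settings and model formula are not given in the sources used here. The authors deposited a mean normalised count (a signal averaged over all libraries), a log2 fold change with its standard error, a Wald score and, for each gene, raw and adjusted p-values. The score equalled fold change over standard error to within 2e-07. Standard errors ended at 0.639, as fold changes shrunken towards 0 give. Whether they were shrunken is not given in the sources used here, and if so, changes of uncertain genes are understated. The 3 samples of a population carry different culture names, and the table's p-values cannot be checked against the spread between them.

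Symbols, positions and exon unions came from GENCODE M21, and 22317 of 22432 rows matched. A gene was called where the deposited adjusted p lay under 0.05. No model was fitted, no library total is known, and rows not analysed here are missing from all counts. Intervals are 1.96 standard errors on each side. Shared sequence was counted in 50-base windows on both strands. Computation used Python 3.11.15 with pandas 2.3.3, and the adjustments were tested on simulated data. Every member is named, and of each other list the called genes with the 3 smallest adjusted p-values in each direction and any gene needed to account for a count of 5 or fewer. Foxm1, Pmf1, Amh, Sox9, Gata4, Wt1, Col1a1 and the overlapping genes were added after their values were seen. Of the genes this rule names, 1 is not reported here. The members and the 13 other lists were chosen with earlier results of these data known.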

Additional observations from a re-analysis of the deposited data

How the results depend on the processing

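Under a stricter adjusted p of 0.01, 13 members stayed higher (background 11%), under a Benjamini-Yekutieli adjustment over all rows 11 (background 7.46%), and under a Benjamini-Hochberg adjustment over all rows 18 (background 14%). These backgrounds are over genes of all levels, and shares at the level of the members were not computed for these rules. Leaving out genes with standard errors above percentile 90 at their level, or genes below a mean count of 100, removed 0 of the members. The 19 calls could therefore not change under these filters. Under none of the alternatives was a member lower. Under Benjamini-Yekutieli 8 calls were lost, those of Aurka, Aurkb, Cenpk, Knl1, Pttg1, Fzr1, Nusap1 and Racgap1. For the mitotic genes that are no members, 17 were higher and 13 lower at an adjusted p of 0.01, and 15 were higher and 8 lower under Benjamini-Yekutieli, against 29 and 18. The median of the members became 0.33 with the shrinkage approximately undone, against 0.31. It could not change under the filters by standard error and mean count, which left every member in. No paired analysis was possible because the table holds no value per library, and for the same reason no replicate could be left out. Depth per sample is unknown.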
